A study of Mus musculus with 6 samples.

Results

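The mitochondrial ribosomal protein genes are described here in mouse bone marrow mesenchymal stem cells undergoing osteogenic induction with or without MCH. Members were every gene of the deposited table whose symbol begins with Mrpl or Mrps followed by a number and is not marked as a pseudogene. This gave 77 of the 19353 genes in the table, 48 Mrpl genes named for the large subunit and 29 Mrps genes named for the small subunit, and 0 pseudogene entries had to be left out. All 77 are protein-coding genes in the GENCODE M21 annotation under the same symbols. They lie on 17 chromosomes, with 10 on chromosome 11, 8 on chromosome 17 and 7 on chromosome 6.

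The mitochondrial ribosome translates the few messenger RNAs made from mitochondrial DNA, which encode core subunits of the respiratory chain and of ATP synthase. Its ribosomal RNAs come from the mitochondrial genome, whereas all of its proteins are encoded in the nucleus, made in the cytosol and imported. The small subunit binds the messenger RNA and reads the codons, and the large subunit joins the amino acids and is anchored to the inner membrane. Differentiation of mesenchymal cells toward osteoblasts is commonly described as involving greater use of oxidative phosphorylation.

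Wild-type (WT) primary cells purified from mouse bone marrow were induced toward bone-forming cells, and both groups received 100 nM dexamethasone, 10 mM β-glycerophosphate and 50 µM ascorbic acid. The MCH group (n = 3 libraries) also received 0.5 µM MCH, melanin-concentrating hormone, a neuropeptide known for its part in feeding and energy balance, and the Control group (n = 3 libraries) did not. Sampling was on day 9 according to the sample titles and on day 8 according to the design text. The comparison asked how the messenger RNA of these cells differed after MCH was added, and no age or sex of the mice is given. The labels do not tell whether replicate libraries stem from different mice, cultures or a single preparation, so every p-value measures only the spread between these libraries, which may be technical. Columns of the table without MCH in their names were taken as Control, and each direction below rests on that reading.

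Libraries of polyadenylated RNA held 16521980 to 18803949 counts each, and 13662 genes had enough counts to be tested. The mesenchymal markers Pdgfra (1805 to 3567 counts per library), Cxcl12 (3047 to 3933) and Ly6a (7889 to 17871) and the osteoblast-lineage genes Runx2 (783 to 1111) and Col1a1 (64369 to 95948) were well detected. Other mesenchymal markers had fewer counts, with Lepr at 5 to 20, Thy1 at 36 to 59 and Nt5e at 81 to 179. The mature osteoblast markers Sp7 (3 to 4 counts) and Bglap (0 to 3) were near 0 in every library. The leukocyte marker Ptprc (0 to 2 counts), the adipocyte markers Adipoq (0 to 3) and Plin1 (0 to 2) and the erythroid gene Hbb-bs (0 to 2) were also near 0. The adipocyte marker Fabp4 was not, with 735 to 1215 counts. Over the 10 stromal markers the summed level was lower with MCH, up to 1150 CPM (counts scaled by library size) against 1630 CPM or more in Control. Ly6a, the most abundant, averaged 533 against 997 CPM, whereas Vcam1 was higher with MCH, at 23.7 against 17.0 CPM. In the edgeR test used below, 4 of the 10 were lower with MCH and 0 higher. Over the 6 osteoblast markers the summed level was 4180 to 4600 against 6070 to 6730 CPM, most of it Col1a1 (3813.3 against 5171.7 CPM on average). By the same test, 3 of the 4 osteoblast markers tested were lower with MCH and 0 higher. These were Col1a1, Alpl (15.3 against 37.2 CPM) and Spp1 (502 against 1050.1 CPM). Over the 8 monocyte and macrophage markers the summed level was higher with MCH, 47.5 to 80.5 against 38 to 45.1 CPM. Among them Itgam (0 to 6 counts) and C1qa (0 to 3) were near 0, and Cd68 (549 to 934) was the most abundant. MCH replicate 3 stood apart in this list, with 50 counts of Adgre1 against 0 to 11 in the other 5 libraries, 31 against 0 to 9 of C1qb, 92 against 5 to 23 of Ctss and 176 against 52 to 110 of Lyz2. Results on the members without that library are given with theirs. Over the 3 endothelial markers it was 2.43 to 4.82 against 3.19 to 3.94 CPM, and over the 3 adipocyte markers 43.1 to 58.7 against 63.7 to 71.6 CPM. The part of these differences in the results on the mitoribosomal genes was not tested. In such bulk libraries, more cells of a type and more RNA per cell cannot be told apart.

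Of the 77 mitochondrial ribosomal protein genes, 8 had more messenger RNA with MCH, among them Mrps25, Mrps22, Mrpl1 and Mrpl12, and the other 69 did not pass the test. All 77 members were tested, since each passed the filter on low counts. Their mean count per library had a median of 810, against 440 over all tested genes. The part of this difference in the comparisons with all tested genes was not tested. With edgeR's quasi-likelihood test and Benjamini-Hochberg adjustment over all 13662 tested genes, the 8 that rose made up 10.4% and 0 fell, against a background of 3.64% of tested genes called higher and 5.40% called lower. An unadjusted edgeR p under 0.05 was reached by 36 members in the direction of MCH and by 0 in the direction of Control. Over all 13662 tested genes, 3657 reached it in either direction. DESeq2 called 17 members higher and 0 lower. The background shares above are those of edgeR, and none is given for DESeq2. The fitted log2 fold change, MCH minus Control, was above 0 for 75 of 77 members (97.4%), against 50.3% of all tested genes. Its median over the members was 0.25, a fold of 1.19, with quartiles of 0.18 and 0.35, while the median over all tested genes was 0.0 with quartiles of -0.21 and 0.18. Single values ran from -0.11 to 0.71, with SEs of 0.06 to 0.43 and a median SE of 0.11.

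In 33 of 77 members (42.9%) the 3 MCH libraries all lay above the 3 Control libraries, and in 0 did Control lie wholly above MCH. The background for MCH wholly above Control was 16.1% of tested genes. The 33 comprised the 8 called members and 25 of the 69 members that were not called. In the remaining 44 members the groups overlapped.

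Within a library, most members deviated from their means in the same direction. In MCH replicate 2, 72 of 77 members were above their own mean over the 6 libraries, and in MCH replicate 3, 73 were. MCH replicate 1 had 34 members above their mean, whereas Control replicates 1, 2 and 3 had 19, 2 and 8. MCH replicate 2 held the highest value of the 6 libraries for 54 members, and Control replicates 2 and 3 held the lowest for 38 and 32. MCH replicate 1 therefore lay close to Control replicate 1. In 42 members it was below the highest Control library, while MCH replicates 2 and 3 were both above every Control library in 66 members. No share over all tested genes is given for either count, so neither can be set against the other genes. With all 3 MCH libraries taken, MCH lay wholly above Control in 33 members (42.9%), against 16.1% of tested genes. The median over all tested genes of the deviation from a gene's own mean was between 0.0 and 0.01 on the log2 scale in every library.

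**Figure D1:**
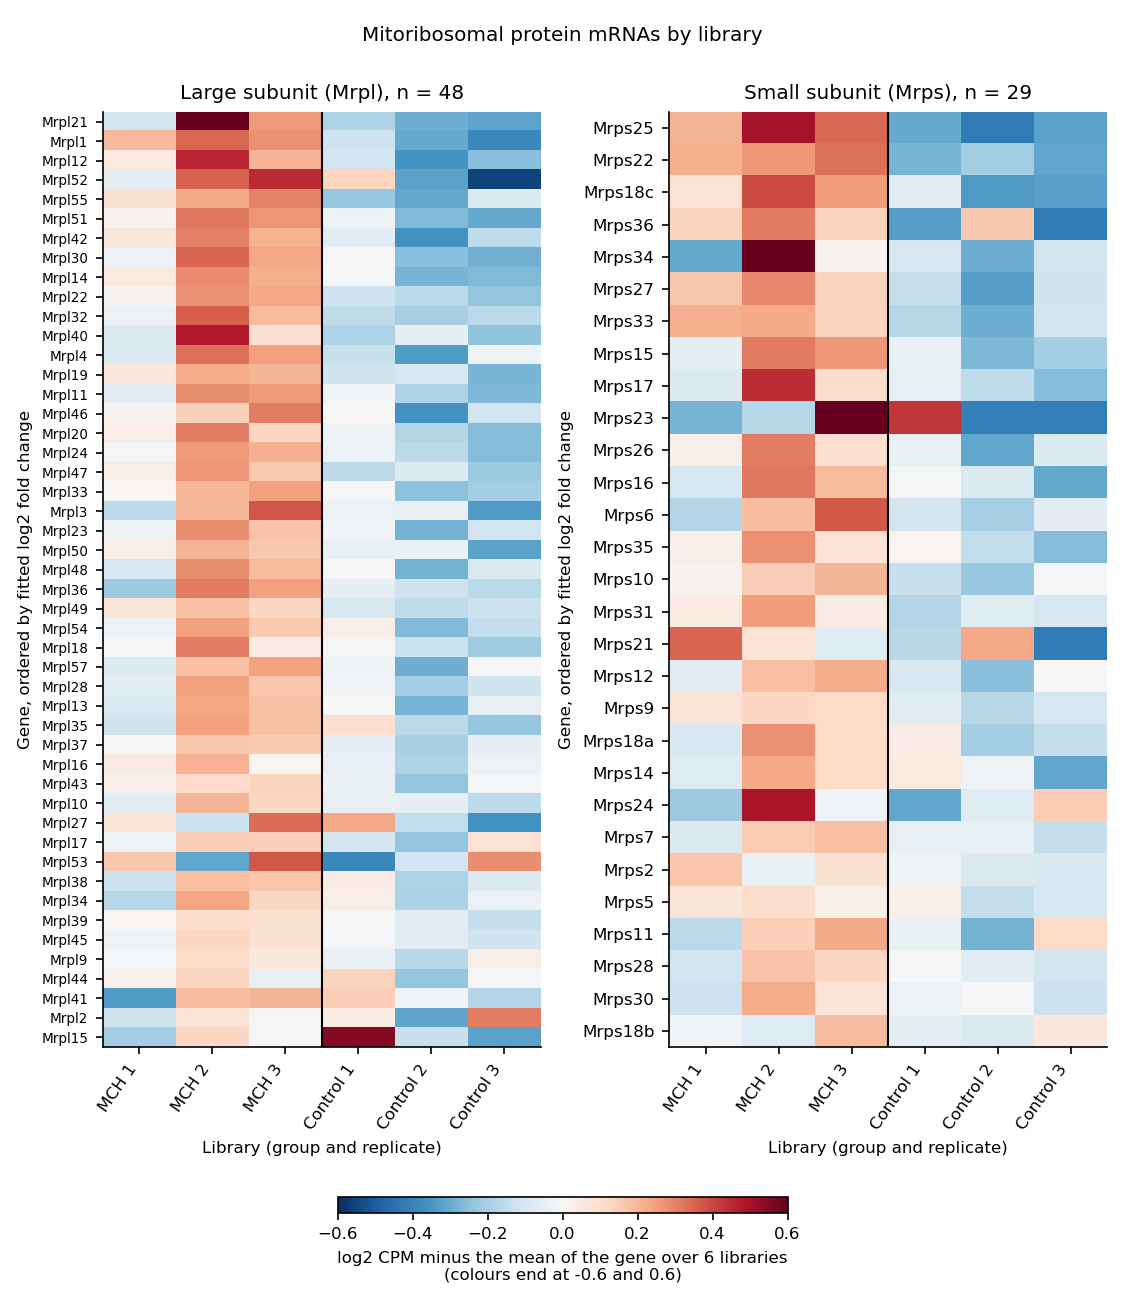
Each row is a member and each column a library; colour shows log2 CPM minus the gene's mean over the 6 libraries, for the large subunit (left, n = 48) and the small subunit (right, n = 29), ordered by fitted fold change. MCH replicates 2 and 3 are above the mean for 72 and 73 of 77 members, Control replicates 2 and 3 for 2 and 8, and MCH replicate 1 (34) lies between.

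The number of calls turned on single libraries. Without MCH replicate 1, 26 members were called higher. Without MCH replicate 2, MCH replicate 3, Control replicate 2 or Control replicate 3, 2 were, Mrps25 and Mrps22 each time. The shares of all tested genes called in these fits are not given here. Members have short transcripts, with a median principal transcript of 1288 bases against 2876 over all tested genes, and 4911 other tested genes of like length (918 to 2572 bases) had a median log2 fold change of 0.06, with 60.1% above 0 and 5.4% called higher. With trends by transcript length and GC content removed, an alternative added after seeing the data, the median log2 fold change of the members was 0.18 in the large and 0.14 in the small subunit, and 9 members were called higher, 6 of them among the 8, without Mrps33 and Mrpl55. Without MCH replicate 3 the medians were 0.23 and 0.25.

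Values of the large and the small subunit lay close together. Of the 48 large-subunit genes 3 rose and 46 were above 0, with a median log2 fold change of 0.26. Of the 29 small-subunit genes 5 rose and all 29 were above 0, with a median of 0.25. Groups were wholly apart for 22 large-subunit genes (45.8%) and 11 small-subunit genes (37.9%), and an unadjusted p under 0.05 was reached by 24 and 12.

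Summed over the large subunit, the level was 2640.0, 3204.8 and 3060.4 CPM in MCH replicates 1, 2 and 3 and 2656.6, 2328.6 and 2402.2 CPM in Control replicates 1, 2 and 3. MCH replicate 1 was thus just below Control replicate 1, and the groups overlapped. The small-subunit sums were 1343.9, 1609.7 and 1511.3 CPM with MCH and 1293.0, 1197.2 and 1205.7 CPM in Control, with no overlap. Group means were 2968.4 ± 293 against 2462.5 ± 172 CPM for the large subunit and 1488.3 ± 134 against 1232.0 ± 53 CPM for the small subunit (SD, n = 3 each), a ratio of 1.21 for both.

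On the per-length scale of the deposited FPKM, the large-subunit sum was 1283.9 ± 103 with MCH against 1069.7 ± 53.8 in Control and the small-subunit sum 607 ± 48.4 against 509 ± 19.9 (SD, n = 3 each), ratios of 1.2 and 1.19. The small-subunit sum divided by the large-subunit sum, in CPM, was 0.509, 0.502 and 0.494 in the MCH libraries and 0.487, 0.514 and 0.502 in the Control libraries. Its group means of 0.502 ± 0.00751 and 0.501 ± 0.0135 (SD, n = 3 each) differed by less than either spread. All members together took 0.443% ± 0.0344 of the counts with MCH and 0.37% ± 0.0166 in Control (SD, n = 3 each).

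**Figure D2:**
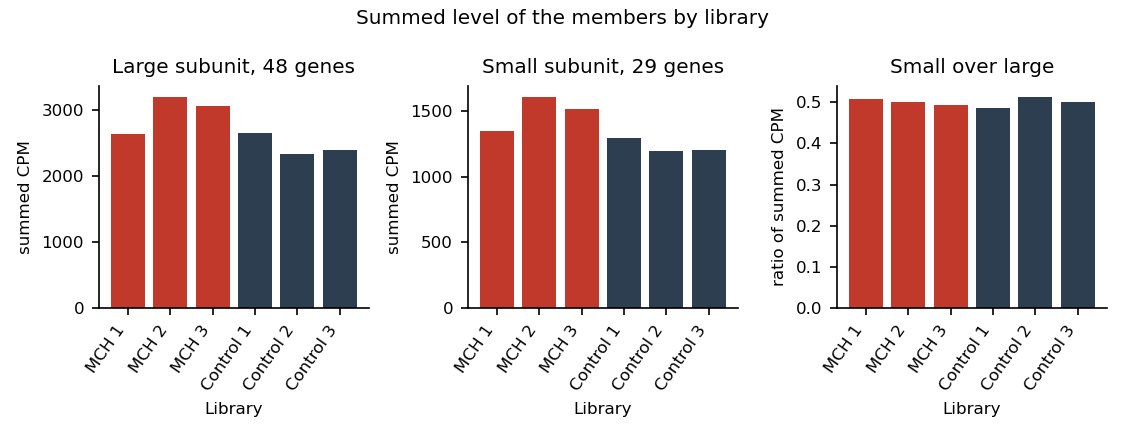
Summed levels of the large-subunit and small-subunit genes in CPM and the ratio of the small to the large sum, with 1 bar per library (red MCH, dark Control) on axes starting at 0. Large-subunit sums overlap between the groups (2640.0 CPM in MCH replicate 1, 2656.6 in Control replicate 1), small-subunit sums do not, and the ratio of the sums is 0.487 to 0.514 in all 6 libraries.

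Among the small-subunit genes, the largest and best-supported difference was in Mrps25 (chr6:92169525-92184033, GRCm38), which encodes a protein of the small subunit with no bacterial counterpart. Its level was 52.9, 65.1 and 58.4 CPM in MCH replicates 1, 2 and 3 and 37.2, 34.2 and 36.7 CPM in Control replicates 1, 2 and 3. Every MCH library was well above every Control library. The log2 fold change was 0.71 ± 0.09 (SE; fold 1.63, edgeR adjusted p = 0.00556).

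Mrps22 (chr9:98588730-98601660) encodes another small-subunit protein that bacteria lack, and inherited changes in its human counterpart cause a respiratory chain deficiency. It stood at 30.9, 31.9 and 33.5 CPM with MCH and at 21.8, 22.9 and 21.3 CPM in Control. Libraries of a group lay close together and the groups were far apart, with a log2 fold change of 0.54 ± 0.08 (SE; adjusted p = 0.00819). Mrps25 and Mrps22 were the only 2 of the 8 called members that kept an adjusted p under 0.05 when each of the 6 libraries was left out in turn, with highest values of 0.03 and 0.048.

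Mrps33 (chr6:39801804-39810988), a small protein of the small subunit, was at 59.6, 60.0 and 56.2 CPM with MCH and at 45.3, 41.7 and 47.3 CPM in Control, a log2 fold change of 0.39 ± 0.08 (SE; adjusted p = 0.0239). Mrps27 (chr13:99344786-99415561), a pentatricopeptide repeat protein, a class known for binding RNA, was at 30.7, 33.5 and 30.2 CPM with MCH and at 24.9, 21.7 and 25.2 CPM in Control, 0.39 ± 0.09 (SE; adjusted p = 0.0397). Mrps18c (chr5:100798627-100804471) is the one of the 3 mammalian relatives of bacterial S18 that sits in the S18 position. It was at 51.3, 63.6 and 57.4 CPM with MCH against 46.0, 38.0 and 38.4 CPM in Control, 0.50 ± 0.11 (SE; adjusted p = 0.0348). In all 3 genes the lowest MCH library was above the highest Control library. The adjusted p rose as far as 0.0813, 0.121 and 0.123, respectively, when 1 library was left out. With trends by transcript length and GC content removed, Mrps33 was at 0.17 (adjusted p = 0.288) and Mrps18c at 0.31 (adjusted p = 0.0214).

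Among the large-subunit genes, Mrpl1 and Mrpl12 encode proteins of the mobile stalks. Mrpl1 (chr5:96209493-96266727), the counterpart of bacterial L1 at the stalk where transfer RNA leaves, was at 27.9, 31.0 and 29.5 CPM with MCH and at 22.2, 19.6 and 18.5 CPM in Control. Its log2 fold change was 0.55 ± 0.10 (SE; adjusted p = 0.0163), with the groups wholly apart. Mrpl12 (chr11:120484613-120489065) encodes the stalk protein that recruits translation factors and was the most abundant called member in CPM, at 105, 138 and 116 with MCH and 93.0, 78.4 and 84.6 in Control. Its log2 fold change was 0.49 ± 0.11 (SE; adjusted p = 0.0362), and the lowest MCH library was above the highest Control library. Mrpl55 (chr11:59202486-59206134), a further large-subunit protein, was at 19.1, 21.1 and 22.2 CPM with MCH against 15.2, 14.4 and 16.9 CPM in Control, 0.42 ± 0.11 (SE; adjusted p = 0.0474), again without overlap. Leaving out 1 library took the adjusted p to 0.069 for Mrpl1, 0.123 for Mrpl12 and 0.164 for Mrpl55 at most. With length and GC trends removed, Mrpl55 was at 0.29 (adjusted p = 0.108).

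**Figure D3:**
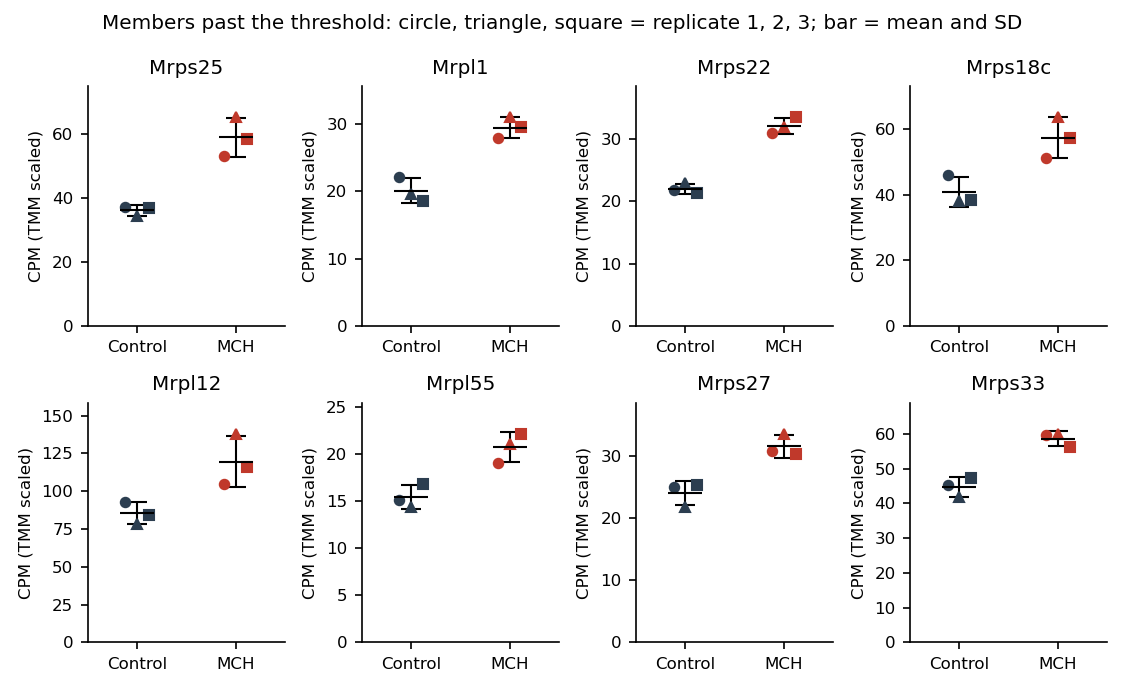
CPM of the 8 called members, with 1 point per library and the group mean and SD on axes starting at 0. In each of the 8 panels the 3 MCH libraries lie above the 3 Control libraries.

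In the authors' deposited table, 0 members carry the authors' mark for a changed gene, 17 have a p under 0.05, and 1, Mrps25, has a q under 0.05 (q = 0.00316). The shares of all genes in that table that meet these cuts are not given here, so the counts cannot be set against a background. Some exons of the called members overlap other genes, and no strand setting of the counting is stated. Of the merged exon bases of Mrps25, 69.8% lie opposite exons of Nr2c2, so reads of these genes could be mixed. Nr2c2 had 635, 295 and 709 counts with MCH and 290, 181 and 776 in Control, with the groups overlapping. Its log2 fold change was 0.39 ± 0.71 (SE, edgeR adjusted p = 0.774). The part of mixed reads in the Mrps25 difference was not tested. Mrps27 shares 24.2% of its exon bases with a gene on the opposite strand, Mrps18c 23.2% with Gm43511 (2 to 23 counts) on the same strand, and Mrpl12 13.1% with Gm16755 (0 to 2 counts). Mrps22, Mrps33, Mrpl1 and Mrpl55 share none.

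The promoters of the called members were read for short motifs of factors known to act on nuclear genes for mitochondria. The RefSeq table (GRCm38.p6) held a window of 300 bases, 250 before and 50 after the transcription start, for 68 of 77 members. Windows are printed for the 4 called small-subunit genes that hold the ETS letters, the core bound by GABP and other ETS factors. Beside them stand Mrps25, the fifth called small-subunit gene, and Mrpl12, the most abundant called large-subunit gene, which hold none of the motifs searched. Windows are written 5′ to 3′ on the strand of the gene. Capitals mark CCGGAAG (ETS) or its reverse complement CTTCCGG in all 4 genes with a match, CACGTG (E-box, bound by MYC and others) in Mrps18c, and AAGATGGC (YY1) in Mrps27, and no match overlaps another.
Mrps18c, chr5:100798509-100798808, plus strand; Mrps22, chr9:98601630-98601929, minus; Mrps27, chr13:99344536-99344835, plus; Mrps33, chr6:39810887-39811186, minus; Mrps25, chr6:92183974-92184273, minus; Mrpl12, chr11:120484387-120484686, plus.
Mrps18c: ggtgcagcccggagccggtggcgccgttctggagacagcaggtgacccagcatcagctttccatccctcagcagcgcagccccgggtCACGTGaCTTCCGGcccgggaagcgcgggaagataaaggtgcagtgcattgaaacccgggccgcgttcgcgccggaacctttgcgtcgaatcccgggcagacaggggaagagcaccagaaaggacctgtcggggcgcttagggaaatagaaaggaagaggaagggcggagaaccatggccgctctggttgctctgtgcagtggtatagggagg
Mrps22: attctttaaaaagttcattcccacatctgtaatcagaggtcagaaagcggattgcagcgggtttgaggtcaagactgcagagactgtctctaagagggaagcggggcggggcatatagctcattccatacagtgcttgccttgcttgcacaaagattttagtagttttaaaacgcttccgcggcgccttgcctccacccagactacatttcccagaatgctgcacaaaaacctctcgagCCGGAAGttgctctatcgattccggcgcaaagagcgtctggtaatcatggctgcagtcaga
Mrps27: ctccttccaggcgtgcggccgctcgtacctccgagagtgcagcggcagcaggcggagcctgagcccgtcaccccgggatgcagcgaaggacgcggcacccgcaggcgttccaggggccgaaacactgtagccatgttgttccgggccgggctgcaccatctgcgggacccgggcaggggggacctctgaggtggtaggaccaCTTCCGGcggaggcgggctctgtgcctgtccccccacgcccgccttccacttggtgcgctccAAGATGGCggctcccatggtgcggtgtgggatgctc
Mrps33: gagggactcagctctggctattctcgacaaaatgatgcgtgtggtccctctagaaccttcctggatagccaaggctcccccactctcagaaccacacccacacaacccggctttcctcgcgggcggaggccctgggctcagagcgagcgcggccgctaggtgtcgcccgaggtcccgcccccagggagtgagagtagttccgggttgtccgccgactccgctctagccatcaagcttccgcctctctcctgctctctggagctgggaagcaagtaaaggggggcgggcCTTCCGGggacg
Mrps25: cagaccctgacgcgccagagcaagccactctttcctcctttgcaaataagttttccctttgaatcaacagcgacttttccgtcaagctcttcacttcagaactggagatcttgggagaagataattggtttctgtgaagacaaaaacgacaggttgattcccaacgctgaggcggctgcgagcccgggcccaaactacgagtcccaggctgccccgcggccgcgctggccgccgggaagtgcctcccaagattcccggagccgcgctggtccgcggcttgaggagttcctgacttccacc
Mrpl12: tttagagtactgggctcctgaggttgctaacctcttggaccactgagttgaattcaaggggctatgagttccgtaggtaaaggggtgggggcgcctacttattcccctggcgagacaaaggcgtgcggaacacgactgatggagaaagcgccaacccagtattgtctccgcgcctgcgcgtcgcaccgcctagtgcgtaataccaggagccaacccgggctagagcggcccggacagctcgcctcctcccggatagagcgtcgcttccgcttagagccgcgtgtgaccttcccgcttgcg

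Over the 68 members with a window, searched on both strands, CCGGAAG was found in 25 (36.8%), against 19.9% of 10246 tested genes and 9.93% of all 27025 genes with a window. AAGATGGC was found in 12 (17.6%), against 5.24% of tested genes. CGCATGCG, a core of the NRF1 site, was found in 7 (10.3%), against 4.29%, and CACGTG in 5 (7.35%), against 11.6%. Within the members, the ETS letters stood in 4 of 8 called (50%) and 21 of 60 not called (35%). The median log2 fold change was 0.27 for members with the ETS letters and 0.25 for those without, and 0.17 for the 7 with the NRF1 letters and 0.27 for those without. In the small subunit the median was 0.30 for the 11 genes with the ETS letters, 4 of them called, and 0.22 for the 15 without, 1 of them called. In the large subunit it was 0.25 for the 14 with them, 0 called, and 0.28 for the 28 without, 3 called. These differences were not tested, and 0 of the 7 members with the NRF1 letters were called. A match describes the letters in the window only.

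Members not past the threshold are given by role. Next after the 8 calls came 6 large-subunit genes, Mrpl49, Mrpl51, Mrpl22, Mrpl42, Mrpl19 and Mrpl14, each with MCH wholly above Control. Mrpl49 was at 67.5, 72.4 and 69.7 CPM with MCH and at 59.8, 57.5 and 58.4 CPM in Control, 0.25 ± 0.06 (SE; adjusted p = 0.05 after rounding, just above the threshold). The other 5 had log2 fold changes of 0.40, 0.36, 0.39, 0.33 and 0.37 in that order. In all, 14 members had an adjusted p from 0.05 to 0.1.

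At the factor-binding stalk, Mrpl12 was the one gene called. Mrpl10, which anchors the stalk, had a log2 fold change of 0.18 ± 0.09 (SE; adjusted p = 0.234), and Mrpl11, at its base, had 0.32 ± 0.11 (SE; adjusted p = 0.119). Toward the catalytic and transfer RNA sites, Mrpl27 had 0.18 ± 0.18 and Mrpl16 0.19 ± 0.09 (SE). Mrpl32, which a membrane protease must cut before it is assembled, was at 25.8, 33.9 and 30.2 CPM with MCH and at 23.7, 22.9 and 23.5 CPM in Control, 0.36 ± 0.11 (SE; adjusted p = 0.0838). Mrpl45, which holds the ribosome at the inner membrane near the exit tunnel, had 0.13 ± 0.07, and Mrpl44, with an RNase III fold, 0.07 ± 0.11 (SE). These 7 genes did not pass the threshold.

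In the small subunit, Mrps12 of the decoding centre was at 27.2, 32.4 and 33.4 CPM with MCH and at 26.8, 23.9 and 28.6 CPM in Control, 0.23 ± 0.11 (SE; adjusted p = 0.227), with overlap. Mrps7, of the head, had 0.17 ± 0.08, and Mrps28 0.13 ± 0.11 (SE). The S18 relatives differed in value: Mrps18c at 0.50 was called, and Mrps18a at 0.21 ± 0.11 (SE; adjusted p = 0.277) and Mrps18b at 0.06 ± 0.09 (SE; adjusted p = 0.746) were not, the difference between them not having been tested. Mrps18a and Mrps30 (0.12 ± 0.10, SE) sit in the large subunit despite their names. Mrps36, now known as a component of the oxoglutarate dehydrogenase complex, had the fewest counts of any member (mean 81 per library) and a value of 0.41 ± 0.21 (SE; adjusted p = 0.245). Sorting these by structure left the medians at 0.25 for the large and 0.26 for the small subunit.

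The 3 smallest values were in large-subunit genes. Mrpl15, at 30.0, 37.8 and 34.3 CPM with MCH, was at 51.1, 31.5 and 27.6 CPM in Control, -0.11 ± 0.24 (SE; adjusted p = 0.817), so that 1 Control library stood above all others, and the value was 0.2 without it. Mrpl2, a core protein near the catalytic site, was at 57.3, 65.8 and 62.6 CPM with MCH and at 64.3, 50.0 and 77.4 CPM in Control, -0.04 ± 0.15 (SE; adjusted p = 0.882), and at 0.12 without Control replicate 3. Mrpl41 stood at 0.05 ± 0.16 (SE). Among larger values that did not pass, Mrpl21 was at 42.9, 73.5 and 55.6 CPM with MCH and at 40.7, 37.8 and 37.1 CPM in Control, 0.57 ± 0.19 (SE; adjusted p = 0.109), and Mrpl52 was at 54.8, 73.0 and 77.7 against 62.3, 45.5 and 38.5 CPM, 0.49 ± 0.21 (SE; adjusted p = 0.207). The spread was wide between the MCH libraries for Mrpl21 and within both groups for Mrpl52 (SD 12.1 CPM with MCH and 12.2 CPM in Control).

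**Figure D4:**
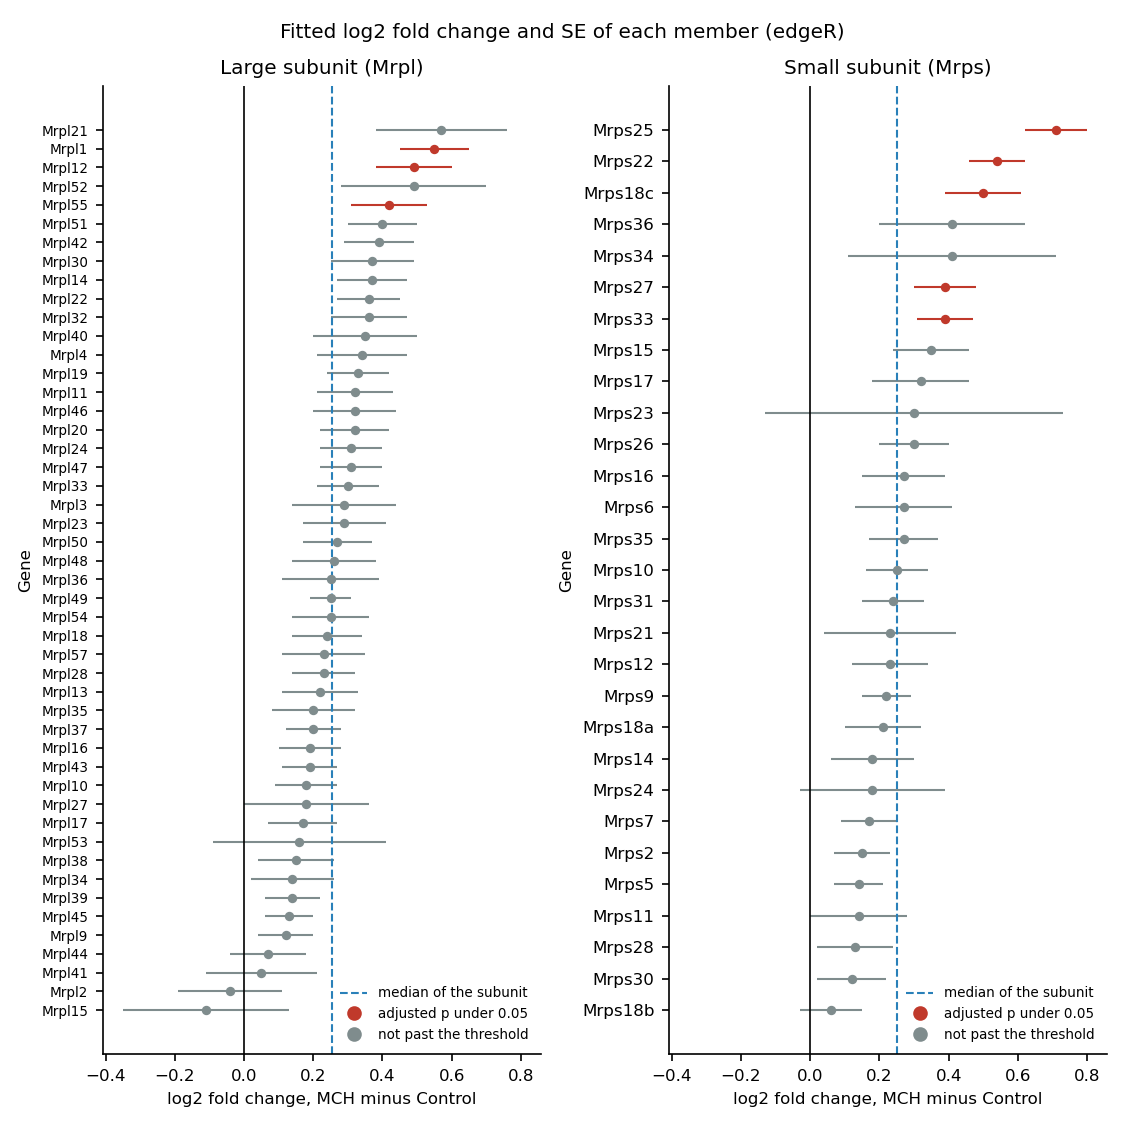
Fitted log2 fold change, MCH minus Control, with its SE for each of the 77 members, by subunit. The 8 members past the threshold lie at 0.39 to 0.71, and 2 members, Mrpl15 and Mrpl2, lie below 0.

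Grouping by evolutionary origin was chosen after the values had been seen and is given as a description. Of 45 members with a bacterial counterpart 3 were called, with a median log2 fold change of 0.25, and of 27 that are found in mitochondria only 4 were called, with a median of 0.27; the other 5, Mrpl55 among them, were not assigned. In the small subunit, the 9 mitochondria-only genes held 4 of the calls (Mrps25, Mrps22, Mrps33 and Mrps27), with a median of 0.39 and MCH wholly above Control in 7. The 16 small-subunit genes with a bacterial counterpart held 1 call, Mrps18c, with a median of 0.22. The large subunit did not have this order, with 0 calls and a median of 0.24 among 18 mitochondria-only genes and 2 calls and a median of 0.29 among 29 with a bacterial counterpart, and 7 of those 18 had an unadjusted edgeR p under 0.05.

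Levels differed between members far more than between groups. On a scale of CPM per kilobase of the principal GENCODE M21 transcript, averaged over the 6 libraries, the members ran from 6.59 to 205, a range of 31.1-fold, with a median of 35.6 in the large and 29 in the small subunit. Mrpl33 (205), Mrpl30 (155), Mrpl52 (140) and Mrps21 (122) were highest, and Mrps36 (6.59), Mrpl1 (6.97) and Mrps25 (7.81) were lowest. Thus 2 of the called members, Mrpl1 and Mrps25, were among the 3 lowest per length.

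The deposited FPKM gave another order. Mrps16 (132), Mrpl42 (100), Mrpl28 (60.6) and Mrpl34 (59.7) were the most abundant in mean FPKM, and Mrps36 (1.75), Mrpl15 (2.79), Mrps17 (3.37) and Mrpl1 (3.52) the least, while Mrpl33, the first on the other scale, had 9.56. Spearman's rho between the scales was 0.62 over 77 members, which share libraries and counts and differ only in the length used. The length behind the deposited FPKM was over 2 times that of the principal transcript for 34 members and below it for 12, so the order of levels between genes depends on the length chosen. Comparisons of MCH with Control within a gene do not.

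The rest of the mitochondrial gene expression machinery was read beside the members. For the unadjusted counts below, the background was 3657 of 13662 tested genes with an unadjusted edgeR p under 0.05, in either direction. Of 6 mitoribosomal proteins whose symbols in the table do not begin with Mrpl or Mrps, 1 rose, all 6 were above 0 and the median log2 fold change was 0.25. The called gene was Ict1, now Mrpl58, a peptidyl-tRNA hydrolase of the large subunit that frees stalled ribosomes. It was at 26.3, 34.4 and 28.3 CPM with MCH against 20.8, 16.9 and 16.7 CPM in Control, 0.71 ± 0.13 (SE; adjusted p = 0.0208), without overlap. Ptcd3, a pentatricopeptide protein of the small subunit, had 0.29 ± 0.11 (SE; adjusted p = 0.138), and Chchd1 had 0.33 and Dap3 0.12.

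Of 26 genes for ribosome assembly and rRNA modification 1 rose and 0 fell, with a median of 0.19 and with MCH wholly above Control in 12 (46.2%). C1qbp, a matrix protein needed for mitochondrial translation, was at 160, 183 and 179 CPM with MCH against 151, 134 and 122 CPM in Control, 0.36 ± 0.09 (SE; adjusted p = 0.0492). Tfb1m, which methylates the small-subunit rRNA, was at 7.98, 8.35 and 9.51 CPM with MCH against 5.59, 6.59 and 4.06 CPM in Control, 0.67 ± 0.19 (SE; adjusted p = 0.0726). Mrm3, a methyltransferase for the large-subunit rRNA, had 0.48 (adjusted p = 0.0698). By DESeq2, 3 of the 26 were called higher, and by limma-voom 0 were, where 8 had an unadjusted p under 0.05.

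Of 13 translation factors 0 were called by edgeR, DESeq2 or limma-voom, 1 had an unadjusted edgeR p under 0.05, and the median was 0.09. The elongation factor Gfm1 had 0.22 (adjusted p = 0.147) and the recycling factor Gfm2 -0.15 (adjusted p = 0.262). Of 17 mitochondrial tRNA synthetases 1 rose, with a median of 0.16: Cars2, which charges cysteine tRNA, was at 35.7, 40.5 and 35.6 CPM with MCH against 29.1, 26.6 and 29.4 CPM in Control, 0.39 ± 0.09 (SE; adjusted p = 0.0348). Of 14 genes for mitochondrial transcription and DNA or RNA maintenance 0 were called by edgeR or DESeq2, 3 had an unadjusted edgeR p under 0.05 and the median was 0.13, with Tfam, which packages mitochondrial DNA, at 0.24 ± 0.07 (SE; adjusted p = 0.077).

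Of 9 regulators of mitochondrial biogenesis 0 were called by edgeR or DESeq2 and 0 had an unadjusted p under 0.05 in either, with a median of 0.01. The coactivator Ppargc1a was at 1.64, 1.30 and 1.10 CPM with MCH and at 1.54, 2.14 and 1.63 CPM in Control, -0.40 ± 0.26 (SE; adjusted p = 0.378), with overlap. The factors whose motifs were searched above were also without a call: Nrf1 had -0.14, Gabpa 0.12 and Yy1 -0.08. Of the 13 mitochondrially encoded messenger RNAs, which the mitoribosome translates, 0 were called by edgeR and 1 by DESeq2, and 3 had an unadjusted edgeR p under 0.05. Values were above 0 for 8 and below 0 for 5. The median was 0.19, and it includes mt-Nd4 (0.61 ± 1.84, SE), which had 12 counts in Control replicate 1. mt-Nd2, a complex I subunit, averaged 1021.2 ± 19.8 CPM in the MCH libraries against 811 ± 105 in Control (SD, n = 3 each), 0.33 ± 0.10 (SE; adjusted p = 0.0759), with MCH wholly above Control. The most abundant of the 13, mt-Co1, averaged 14979.6 ± 126 CPM with MCH against 15568.3 ± 690 in Control (SD, n = 3 each). Its log2 fold change was -0.06 ± 0.08 (SE, edgeR adjusted p = 0.688), with overlap.

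**Figure D5:**
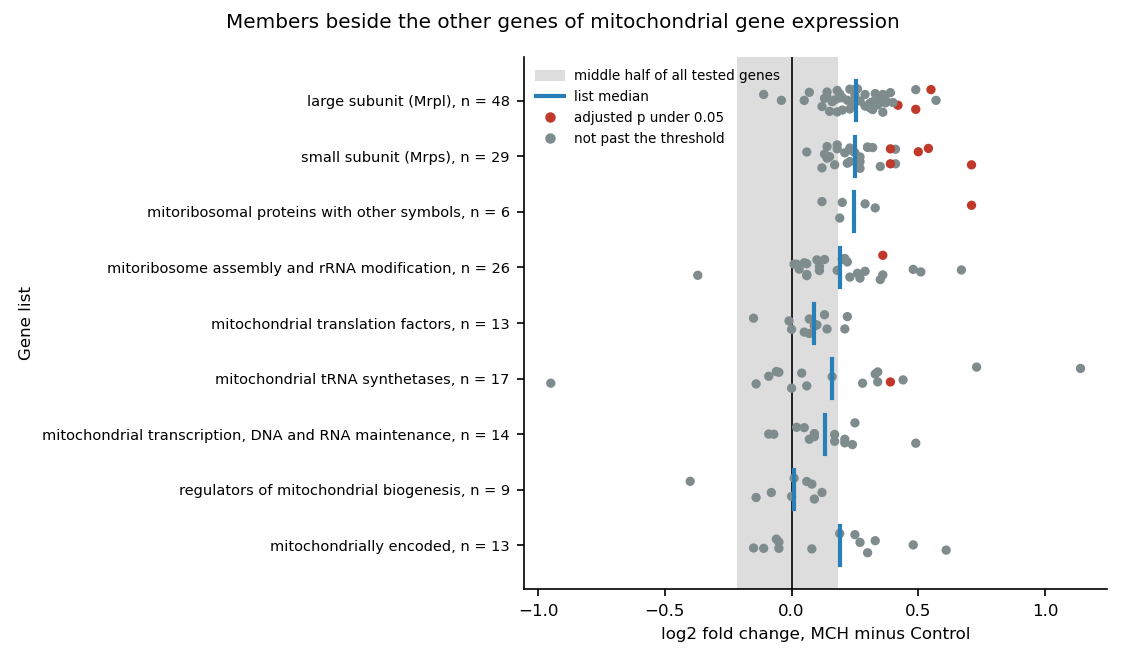
Fitted log2 fold changes of the members by subunit and of the other lists, with 1 point per gene, a bar at each list's median and a grey band between the quartiles of all tested genes (-0.21 and 0.18). Medians are 0.26 and 0.25 for the subunits and lie between 0.01 and 0.25 for the other lists; differences between lists were not tested.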

How the data were processed

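Polyadenylated RNA of 3 MCH and 3 Control libraries was analysed from the authors' table, which holds whole-number read counts and FPKM values per gene and library, per the file headers. Columns with the p-values and q-values of a comparison made by the authors are also deposited. The submitters' processing notes name the build GRCm38 (mm10). No aligner, counting tool, annotation release or strand setting is given in the sources used here.

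A robust quasi-likelihood model with group as its one term was fitted to the deposited counts (edgeR 4.0.16, R 4.3.3). Genes were kept by filterByExpr (minimum count 10, minimum total 15), libraries were scaled by TMM, and two-sided p-values were adjusted by Benjamini-Hochberg over 13662 tested genes at 0.05. This left out 5691 genes, and the common biological coefficient of variation was 0.174. An SE is the unshrunken coefficient (log2) over the root of F. CPM is TMM scaled. The calculations were checked on simulated data. FPKM was summed as deposited; in 1 alternative it was log2 transformed with a pseudocount of 1. The length behind FPKM was constant per gene across libraries (ratio at most 1.001). Libraries held 16521980 to 18803949 counts, and the precision of each value is given by its SE or SD.

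Members named singly were those past the threshold, the extremes of p, fold change and FPKM per subunit, and genes of defined role; Mrpl49, Mrpl51, Mrpl22, Mrpl19, Mrpl14, Mrpl52, Mrpl30, Mrpl33 and Mrps21 where outside this were chosen after their values were seen. The members and lists were chosen with earlier results of these data known. Loci of 72 of 77 members lay within 1000 bases of GENCODE M21. Alternatives were DESeq2 1.42.0, limma 3.58.1 (voom, or log2(FPKM + 1)), scaling by RLE or by the upper quartile, no filter, a minimum count of 50, a non-robust fit, a replicate block, removal of a length trend (lowess span 0.3), each library left out and, added after seeing the data, removal of transcript length and GC trends. Replicate numbers are shared by the groups, and the labels do not tell whether they pair the libraries.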

Additional observations from a re-analysis of the deposited data

How the results depend on the processing

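The count of 8 members called higher was 17 with DESeq2 and 13 with limma on log2(FPKM + 1), and it was between 7 and 12 under the other scalings, filters and trend corrections. Leaving out 1 library gave 2 to 26. Shares of all tested genes called under these alternatives are not given here. Members called lower numbered 0 under every alternative. With the replicate number as a block the count was 0 (28 genes higher and 151 lower in all). The medians stayed at 0.25 in both subunits. Over all tested genes, deviations of same-numbered libraries from their group means had correlations of -0.161, -0.0386 and -0.0138. These do not tell whether same-numbered libraries share a mouse, culture or preparation. Medians by subunit ran from 0.22 to 0.34 (large) and from 0.20 to 0.32 (small) when 1 library was left out, and were 0.22 in both with a length trend removed. With transcript length and GC trends removed, added after seeing the data, they were 0.18 (large, 44 of 48 above 0) and 0.14 (small, 27 of 29). The cause of these shifts was not tested.

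Over all 77 members, 9 changed sign under at least 1 alternative, and 0 of the called members did. Mrps23 (0.30) was -0.15 and Mrpl53 (0.16) was -0.01 without MCH replicate 3, and Mrps24 (0.18) was -0.05 without MCH replicate 2. Mrpl15 ran from -0.28 to 0.2 when 1 library was left out (0.2 without Control replicate 1), and Mrpl2 from -0.19 to 0.12 (0.01 without MCH replicate 1, 0.12 without Control replicate 3). Mrpl41 was -0.07 with the length trend removed, -0.09 with length and GC removed, and ran from -0.04 to 0.21 with 1 library left out (below 0 without MCH replicate 2, MCH replicate 3 or Control replicate 3, at -0.03, -0.04 and -0.03). Mrpl44 was -0.01 with length and GC removed and ran from -0.02 (without Control replicate 2) to 0.16. Mrps18b was -0.07 with length and GC removed and ran from -0.03 (without MCH replicate 3) to 0.11, and Mrps28 was -0.0032 with length and GC removed.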

Other observations

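Several genes of this set had 1 or 2 libraries far from the others. Mrps34 was at 99.4 CPM in MCH replicate 2 and at 46.1 to 57.8 CPM elsewhere, and its exons overlap those of Mapk8ip3 (63.4% of its exon bases, opposite strand) and Nme3 (37%, same strand). Mapk8ip3 had 2840 counts and Nme3 had 81 counts in MCH replicate 2, against 2596 to 3413 and 44 to 81 over the 6 libraries. Mrps23 was at 65.9 CPM in MCH replicate 3 and 49.3 CPM in Control replicate 1, and at 27.2 to 32.3 CPM in the other 4. Mrpl15 was at 51.1 CPM in Control replicate 1 and at 27.6 to 37.8 CPM elsewhere.

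Libraries apart from the others were also seen in the wider machinery. The mitochondrially encoded mt-Nd4 had 12 counts in Control replicate 1 and 31300 to 36193 counts in the other 5 libraries, and its fitted log2 fold change was 0.61 ± 1.84 (SE). Nsun4, an rRNA methyltransferase, was at 7.19 CPM in MCH replicate 3 and at 18.7 to 19.7 CPM elsewhere. Lars2, the leucine tRNA synthetase, was at 95.1 and 93.6 CPM in Control replicates 1 and 2 and at 30.1 to 44.4 CPM in the other 4 libraries.

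The length implied by the deposited counts and FPKM exceeded the gene's whole span for 10 members. For Mrps17 it was 13836 bases against a span of 7060 bases, and for Mrps34 3658 against 2387 bases. Over the 77 members its median was 2722 bases, against 1288 bases for the principal transcript, and for 10 members it was within 10% of the merged exons of GENCODE M21.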
